A study of Mus musculus with 36 samples.

Results

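Optic nerve crush and microbead-induced glaucoma injure the same neurons, the retinal ganglion cells (RGCs), by different routes, and here the retinas of both models were compared with each other rather than with naïve retina. The comparison took 8 of the 36 libraries of the series: 4 libraries of crush and 4 of glaucoma, at 3 D and at 2 W. Members were chosen by their labelled tissue, model and time alone. All mice were C57BL/6 of 2 to 4 months with no transgene named. In the crush groups the optic nerve (ON) of a single eye was squeezed behind the globe with forceps. In the glaucoma groups microbeads were injected into the anterior chamber of a single eye to raise intraocular pressure. Each group of a given model and time was 1 library of pooled RNA from 2 female mice and 1 library from 2 male mice, so that n = 2 pools for a group, and differences between sexes and between pools of a group cannot be told apart. The main fits hold a sex term. Their p-values therefore measure the spread between pools that remains after a female to male difference shared by all groups is taken out. Naïve retina (2 pools) and glaucoma at 6 W (2 pools) are given beside the values and entered no test of crush against glaucoma, except where a fit of all 12 retina libraries is named.

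RGCs are the output neurons of the retina, and their axons form the ON. They are known by the RNA-binding proteins Rbpms and Rbpms2, the Brn3 transcription factors (Pou4f1, Pou4f2, Pou4f3), γ-synuclein (Sncg), and the neurofilaments of their long axons (Nefl, Nefm, Nefh). An injured axon sends a signal to its soma through stress kinases, which switches on transcription factors such as Jun and Atf3, while Müller glia and astrocytes respond with their own stress genes such as Gfap. Crush severs the axons at once, whereas raised pressure injures them over a longer time.

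The 8 libraries held 19931516 to 55990831 estimated counts, and the 4 naïve and 6 W libraries 26597848 to 43795226. The sex-linked genes matched the labelled sex in 12 of 12. Sag, the arrestin of rods, was at 7849 to 14240 CPM (gene counts scaled to a common library total) in the 8 libraries, which checks the tissue. The female glaucoma 3 D pool stood apart from its male counterpart and was also the shallowest library. In it the injury genes lay at the levels of crush at 3 D, and the RGC markers had a median log2 ratio to naïve of -1.38, against -0.22 in the male pool and -0.91 and -0.97 in the crush 3 D pools. With 2 pools in the group, which of them is the unusual one cannot be told. Medians of lists at 3 D are also given without the female pool, and were not computed without the male pool. Leaving out the female pool widened the 3 D gap between the models for the RGC markers and the injury genes. Values are listed below with the female pool first and the male pool second, in CPM unless another unit is named.

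Over both times, with time and sex as terms, no gene of 23598 tested passed the limits used here, a Benjamini-Hochberg adjusted p below 0.05 with an absolute log2 fold change (log2FC, crush minus glaucoma) above 1 (edgeR quasi-likelihood test, 0% of genes called). Without adjustment, 818 genes (3.47%) had a p under 0.05, of which 500 were lower in crush and 318 higher. DESeq2 was fitted to the 40373 genes with any count in these libraries, and gave no adjusted p for some of them. It called 27 genes, 8 higher and 19 lower. On simulated data for both times, with 200 genes changed, DESeq2 made 30 false calls and edgeR 6. Of 100 genes changed by 2 on the log2 scale DESeq2 recovered 73 and edgeR 61. The number of changed genes in the real data is unknown, so these counts do not give the false share of the 27. At 2 W alone, 12 genes (0.0509%) passed in edgeR, and 10 of these were lower in crush. At 3 D, 2 genes (0.00848%) passed, and for 8 genes (0.0339%) the gap between the models differed between the times. With the female glaucoma 3 D pool left out, edgeR called 4 genes over both times, 20 at 3 D, 47 at 2 W and 21 for the gap, and without the female crush 2 W pool 0, 4, 5 and 2. The median log2FC of all genes was 0.00 over both times, 0.01 at 3 D and -0.02 at 2 W.

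RGC genes were lower in crush at 2 W. The study chose its 8 RGC markers for these samples, so that they are not independent evidence, and all 8 were lower in crush than in glaucoma at 2 W, with no overlap between the pools, and their median log2FC was -3.35. Across all genes tested, 20.4% were lower in crush with no overlap at this time, and 4% were lower at an unadjusted p under 0.05, which all 8 markers were. Of these, Rbpms passed the adjusted p in edgeR, and 7 passed in DESeq2. Of 30 other RGC and axon genes, 26 were lower with no overlap, and the same number at an unadjusted p under 0.05, with a median log2FC of -1.15. Of the 30, 3 (Nefl, Nefm and Slc17a6) passed in edgeR, and 15 in DESeq2. Across all genes at 2 W, edgeR called 12 of 23598 (0.0509%), and DESeq2 called 161 among the 40373 with any count. In bulk RNA, fewer RGCs and less RNA per RGC cannot be told apart.

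Nefl encodes the light neurofilament chain, and its level in naïve retina was 808 and 766 CPM. At 2 W it was 106 and 87.4 CPM in crush and 592 and 612 CPM in glaucoma. Both crush pools were low and the glaucoma pools were close to each other, with a mean 6.21 times that of crush (log2FC -2.63, SE 0.23, edgeR adjusted p = 0.0137). At 3 D crush stood at 413 and 466 CPM and glaucoma at 387 and 624 CPM, so the groups overlapped. Glaucoma at 6 W was at 575 and 628 CPM. The gene lies at chr14:68083863-68089095 on the plus strand of GRCm38, inside the interval that the assembly gives the opposite strand gene Nefm (chr14:68082590-68124846), and the counting was not stated to use strand.

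Nefm, the medium neurofilament chain, was at 23.3 and 19.97 CPM in crush at 2 W, and at 137 and 127 CPM in glaucoma. At 3 D the models lay together, at 101 and 106 CPM in crush and at 81.9 and 110 CPM in glaucoma. The 2 W difference was called (log2FC -2.60, SE 0.20, edgeR adjusted p = 0.00478), and so was the change of the gap between the times. Nefh, the heavy chain, was at 16.1 and 12.7 CPM in crush against 67.9 and 61.9 CPM in glaucoma at 2 W. That difference missed the limit in edgeR (log2FC -2.17, adjusted p = 0.200) and passed in DESeq2 (adjusted p = 5.32e-07).

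Slc17a6 encodes VGLUT2, the transporter that loads glutamate into the vesicles of RGCs. It differed from the neurofilaments at 3 D, when crush (66.8 and 87.4 CPM) was still at the naïve level (72.5 and 79.7 CPM). By 2 W it was at 9.57 and 9.03 CPM in crush and at 59.8 and 62.6 CPM in glaucoma. Both crush pools thus lay far below every other retina pool of the series, the lowest of which, glaucoma at 6 W, was at 51.2 CPM. The 2 W difference had a log2FC of -2.71 (SE 0.19, edgeR adjusted p = 0.00462), and the gap differed from that at 3 D by -3.004 on the log2 scale (SE 0.26, edgeR adjusted p = 0.0118). The gene is at chr7:51622006-51671119 on the plus strand.

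**Figure D1:**
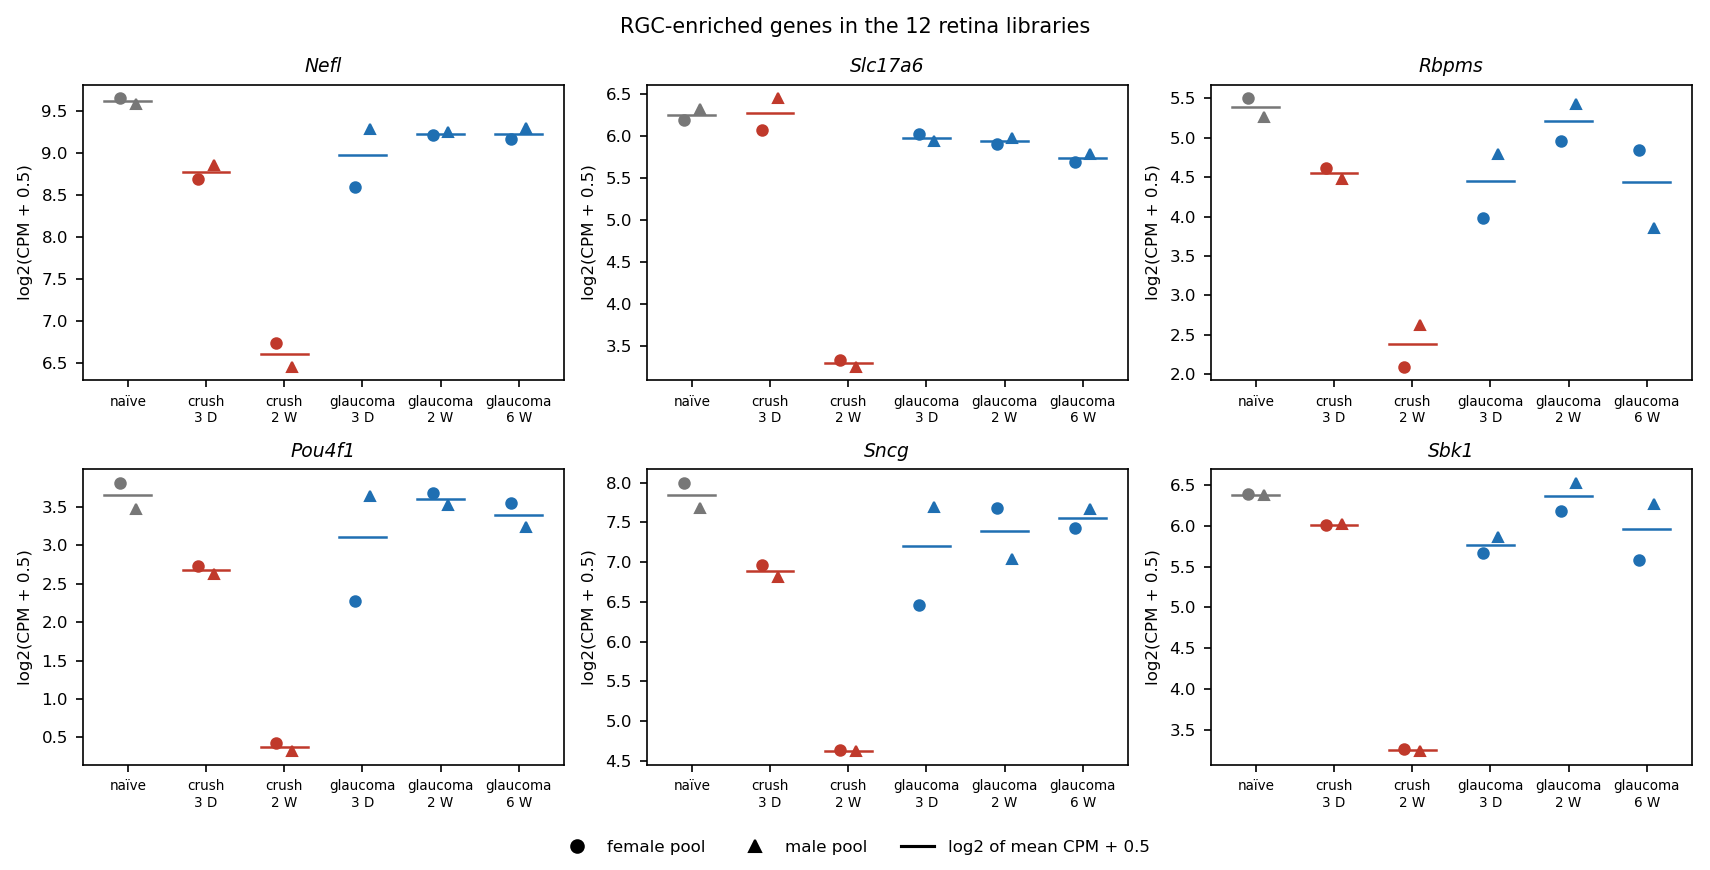
Genes of the RGC lists (Nefl, Slc17a6, Rbpms, Pou4f1 and Sncg) and Sbk1, which is outside those lists, in each retina library. The vertical axis is log2(CPM + 0.5) and the horizontal axis the group. Circles are female pools, triangles male pools and lines the log2 of the group mean. In all 6 panels both crush 2 W pools lie below every other pool, for example Slc17a6 at 9.57 and 9.03 CPM against 51.2 CPM or more.

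Among the Brn3 factors, Pou4f1 was at 0.841 and 0.748 CPM in crush at 2 W and at 12.3 and 10.99 CPM in glaucoma, a log2FC of -3.86 (SE 0.49). Its adjusted p in edgeR was 0.0550, just outside the limit, and 3.09e-12 in DESeq2. Pou4f2 was at 0.318 and 0.443 CPM against 4.52 and 5.69 CPM, and Pou4f3 at 0.0748 and 0.665 CPM against 4.30 and 3.40 CPM. None of these 3 overlapped between the models at 2 W. Isl2, a homeobox factor of RGCs, followed the same order, at 0.542 and 0.526 CPM in crush against 6.76 and 6.04 CPM in glaucoma.

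Rbpms was at 3.78 and 5.68 CPM in crush at 2 W and at 30.7 and 42.7 CPM in glaucoma (log2FC -2.96, SE 0.29, edgeR adjusted p = 0.0168). At 3 D the pools overlapped, at 24.0 and 21.8 CPM in crush and at 15.3 and 27.4 CPM in glaucoma. In glaucoma at 6 W the 2 pools were at 28.4 and 13.9 CPM, against 45.0 and 38.0 CPM in naïve retina. Rbpms2 was at 2.67 and 0.720 CPM in crush at 2 W and at 26.6 and 31.0 CPM in glaucoma. Sncg, which marks RGC somata and axons, was at 24.3 and 24.0 CPM against 204 and 130 CPM. Thy1, a surface glycoprotein of RGCs and other projection neurons, was at 10.98 and 15.2 CPM against 44.4 and 39.5 CPM. Naïve Thy1 itself spread from 15.6 to 37.5 CPM between its 2 pools, so the glaucoma level sat above both. Tubb3, the neuronal β-tubulin, had the smallest difference of the study's 8 markers, at 72.6 and 70.4 CPM against 129 and 132 CPM (log2FC -0.87, SE 0.20).

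Outside the RGC lists, 4 genes shared this pattern and were called at 2 W. Sbk1, a brain-enriched serine/threonine kinase at chr7:126248862-126295016, was at 9.13 and 8.92 CPM in crush and 72.1 and 91.7 CPM in glaucoma. Its 2 W difference had the smallest adjusted p of all genes at that time (log2FC -3.17, SE 0.19, edgeR adjusted p = 0.00193), while at 3 D it was at 63.7 and 64.5 CPM in crush and at 50.2 and 57.9 CPM in glaucoma. Trarg1, which regulates glucose transporter trafficking in fat and muscle, was at 0.972 and 1.72 CPM in crush against 26.6 and 35.3 CPM in glaucoma (log2FC -4.56, SE 0.51, edgeR adjusted p = 0.0332). Nell2, a secreted neuronal glycoprotein that was named after its values were seen, was at 7.85 and 6.93 CPM against 32.7 and 41.9 CPM (log2FC -2.32, SE 0.24, edgeR adjusted p = 0.0238). Srgap1, a Slit-Robo GTPase-activating protein also named after its values were seen, was at 2.09 and 1.97 CPM against 12.96 and 13.97 CPM. Its log2FC was -2.74 (SE 0.30, edgeR adjusted p = 0.0332).

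Of these calls at 2 W, Sbk1, Slc17a6, Nefl and Nefm passed in all 18 alternative settings. Rbpms, Trarg1, Nell2 and Srgap1 lost the call when either crush 2 W pool was left out, which leaves a single pool of that group, and Srgap1 also without the male glaucoma 2 W pool. On deposited FPKM, Sbk1, Slc17a6, Nefl, Nefm, Rbpms and Nell2 passed as well (limma, adjusted p 0.00526 to 0.0445), and Trarg1 and Srgap1 did not.

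Subtype genes of RGCs were less uniform than the general markers. Of 17 tested, 6 were lower in crush with no overlap at 2 W and 1 was higher, beside 20.4% and 18.6% of all genes, and the median log2FC was -0.29. Opn4, the photopigment melanopsin of intrinsically photosensitive RGCs, was at 1.87 and 1.99 CPM in crush at 2 W against 4.21 and 6.13 CPM in glaucoma (log2FC -1.37, SE 0.38, edgeR adjusted p = 0.567). Foxp2, a factor of F-type RGCs, had no overlap over both times, at 1.16 to 2.45 CPM in the 4 crush pools and 3.51 to 4.15 CPM in the 4 glaucoma pools. Across all genes, 1.2% were lower in all 4 crush pools than in all 4 glaucoma pools, and Foxp2 was 1 of 2 such subtype genes, Tbx20 being the other (Foxp2 log2FC -1.06, edgeR unadjusted p = 0.00618). Spp1, which marks α-RGCs and is also made by glia, was at 64.6 and 65.6 CPM in crush and 77.7 and 33.7 CPM in glaucoma at 2 W, so that its pools overlapped.

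At 3 D the RGC genes did not separate the models. The median log2FC was -0.20 for the 8 markers and -0.07 for the 30 other genes, and 0 of the 8 and 1 of the 30 were lower in crush at an unadjusted p under 0.05 (background 1.56%). Without the female glaucoma 3 D pool these medians were -0.62 and -0.15. The gap at 2 W minus that at 3 D had a median of -3.20 over the 8 markers and -1.0 over the 30 others, beside -0.03 over all genes, of which 3.92% had a negative and 2.37% a positive value at an unadjusted p under 0.05. It passed for Slc17a6 and Nefm in edgeR, and missed for Nefl (adjusted p = 0.0916) and Rbpms (adjusted p = 0.0743). Both calls of the gap were lost without the female crush 2 W pool (adjusted p = 0.0633 for each), and that of Nefm also without the male one.

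Set beside naïve retina in a fit of all 12 retina libraries, the models had the following values, which share the naïve pools and are therefore not independent. Crush at 2 W had a log2FC to naïve of -3.02 for Nefl, -3.03 for Slc17a6 and -3.15 for Rbpms, each called (edgeR adjusted p = 0.000258, 7.78e-05 and 0.0130). Glaucoma at 2 W was at -0.39, -0.31 and -0.19 for these genes, with none called, and at 6 W at -0.39, -0.52 and -0.96. In that fit 61 genes were called in crush at 2 W, 51 of them lower than naïve, and 0 in glaucoma at 2 W (edgeR), where 1723 genes had an unadjusted p under 0.05.

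**Figure D2:**
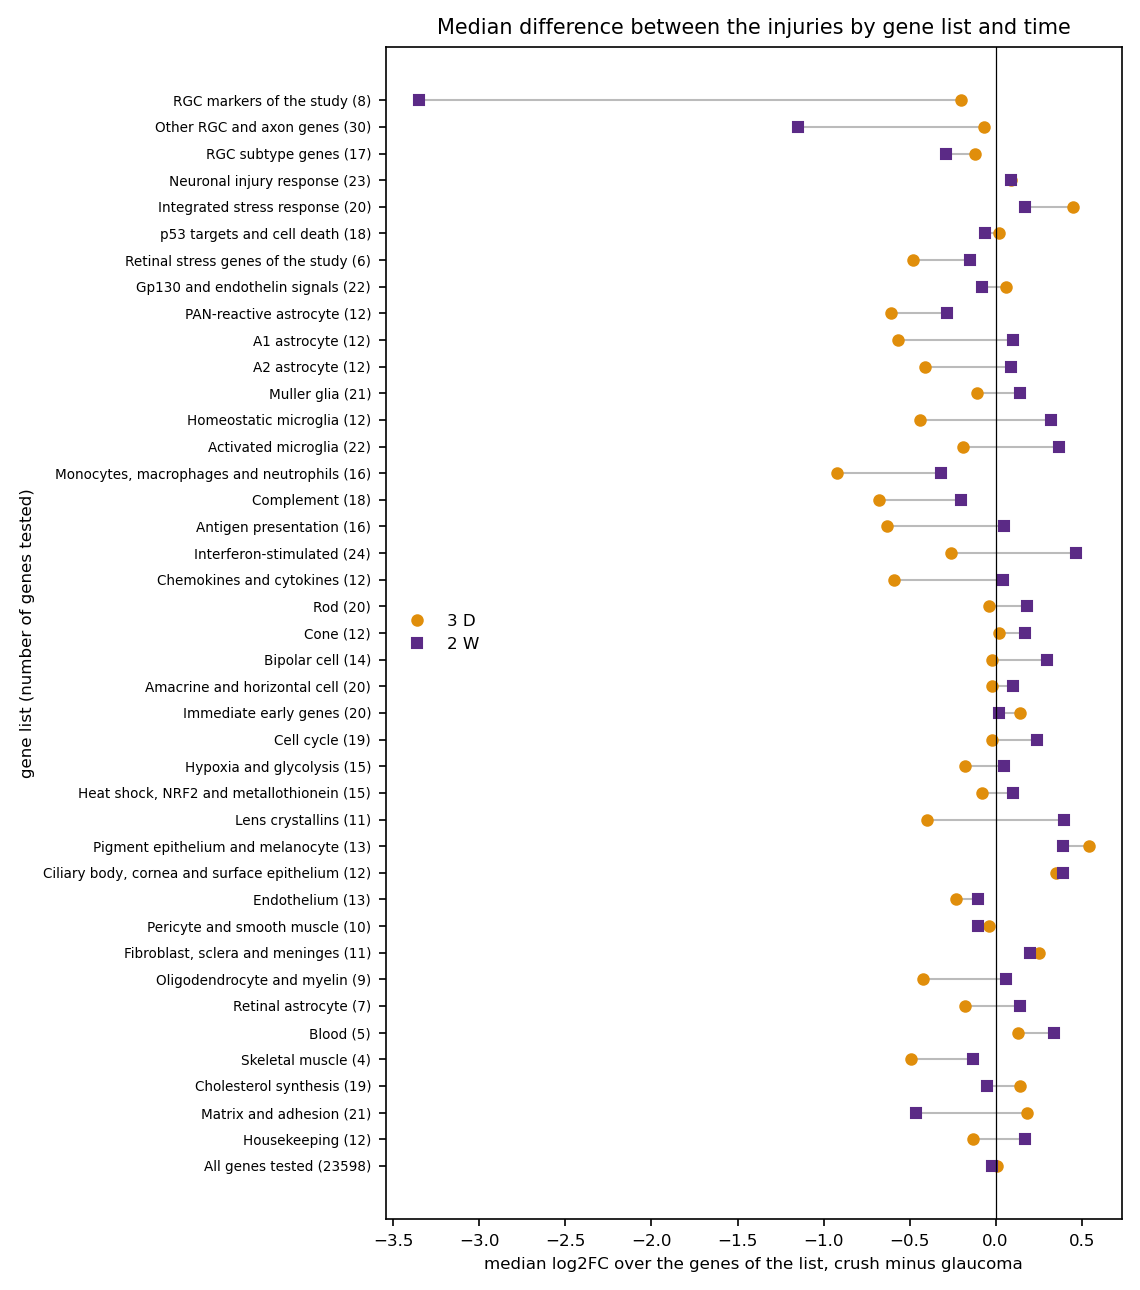
Median log2FC (crush minus glaucoma) over the tested genes of each list on the horizontal axis, at 3 D (circles) and 2 W (squares), with the number of genes tested in brackets on the vertical axis. The RGC markers move from -0.20 at 3 D to -3.35 at 2 W, and all genes tested stay at 0.01 and -0.02.

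The neuronal injury response had a median log2FC near 0, and none of its 23 tested genes was called over both times, at 3 D or at 2 W by edgeR or by DESeq2. Over both times 14 were on the higher side in crush and 9 on the lower side, and 3 were higher and 0 lower at an unadjusted p under 0.05, beside 1.35% and 2.12% of all genes. Promoters of genes from this list and from 2 others are printed first, to show where the letters of a few known factors stand in them. The genes shown were picked after their values were seen because they hold a match. The sequences are the 250 bases before the RefSeq start on GRCm38.p6, 5′ to 3′, with the matches in capitals. The motifs were chosen after the values were seen.
Sprr1a, chr3:92485882-92486131 on the minus strand: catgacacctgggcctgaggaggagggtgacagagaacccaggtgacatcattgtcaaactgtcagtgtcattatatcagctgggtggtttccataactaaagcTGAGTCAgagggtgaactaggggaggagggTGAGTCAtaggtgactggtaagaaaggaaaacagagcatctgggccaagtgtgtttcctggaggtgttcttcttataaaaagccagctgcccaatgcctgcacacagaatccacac
Atf3, chr1:191183334-191183583 on the minus strand: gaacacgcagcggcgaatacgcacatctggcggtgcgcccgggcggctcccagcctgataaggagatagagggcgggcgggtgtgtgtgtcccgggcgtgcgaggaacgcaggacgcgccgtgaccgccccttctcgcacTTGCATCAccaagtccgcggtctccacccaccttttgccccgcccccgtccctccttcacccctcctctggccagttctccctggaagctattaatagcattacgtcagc
Chac1, chr2:119350992-119351241 on the plus strand: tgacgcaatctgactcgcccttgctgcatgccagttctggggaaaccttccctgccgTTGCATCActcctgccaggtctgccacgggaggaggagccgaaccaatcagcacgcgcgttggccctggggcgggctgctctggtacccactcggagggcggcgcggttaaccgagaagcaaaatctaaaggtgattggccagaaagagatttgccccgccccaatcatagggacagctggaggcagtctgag
Steap4, chr5:7960222-7960471 on the plus strand: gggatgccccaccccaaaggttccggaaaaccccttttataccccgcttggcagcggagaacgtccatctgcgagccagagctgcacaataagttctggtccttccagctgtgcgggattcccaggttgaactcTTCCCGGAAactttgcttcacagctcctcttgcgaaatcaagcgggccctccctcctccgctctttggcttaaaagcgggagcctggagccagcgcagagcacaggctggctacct

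Sprr1a holds 2 copies of the AP-1 letters TGANTCA, which Jun and Fos dimers recognise, and which are present in 6.75% of all 32851 promoters of this length on either strand. Those letters were in 2 of 14 injury promoters (Dclk1 and Sprr1a), 1 of 20 integrated stress response promoters and 2 of 13 promoters of the PAN-reactive astrocyte list. Atf3 and Chac1 each hold 1 copy of TGATGCAA, the composite site of C/EBP and ATF4, read on the opposite strand and present in 0.791% of promoters. The ATF4 letters were in 5 of the 20 integrated stress response promoters in the table (Chac1, Fgf21, Nupr1, Slc7a11 and Vldlr) and in 1 of 14 injury promoters. Steap4 holds 1 copy of TTCCNGGAA, a STAT site, present in 0.913% of promoters and in 1 of 13 promoters of the PAN-reactive astrocyte list. A match describes these letters only.

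Sprr1a, a cornified envelope protein that injured neurons switch on, was listed at 0 CPM in both naïve pools and both 6 W pools. At 3 D it was at 18.8 and 26.7 CPM in crush, and at 18.8 and 1.96 CPM in glaucoma. At 2 W it was at 5.55 and 7.12 CPM in crush and at 3.84 and 0.283 CPM in glaucoma. The crush pools were alike at both times, while in glaucoma at 3 D the female pool lay with them and the male pool did not (over both times log2FC 2.08, SE 0.76, edgeR unadjusted p = 0.0222, adjusted p = 0.9997).

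Ecel1, a neuronal endopeptidase induced by axon injury, did not overlap between the models at 2 W. It was at 0.590 and 0.827 CPM in naïve retina, at 45.4 and 88.3 CPM in crush at 3 D and at 34.3 and 31.8 CPM in crush at 2 W. In glaucoma it was at 64.3 and 2.05 CPM at 3 D, at 6.36 and 0.802 CPM at 2 W and at 0.758 and 0.336 CPM at 6 W. The male glaucoma pools thus stayed near naïve at each time, and only the female 3 D pool reached the range of crush. The 2 W difference was not called (log2FC 3.80, SE 1.25, edgeR unadjusted p = 0.0150, adjusted p = 0.724).

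Atf3, the stress-inducible transcription factor, was at 47.9 and 98.2 CPM in crush at 3 D and 38.4 and 30 CPM at 2 W, with 14.99 and 17.98 CPM in naïve retina. Glaucoma was at 74.3 and 28.1 CPM at 3 D and at 20.4 and 17.0 CPM at 2 W, below both crush pools. Its log2FC was 0.74 over both times (SE 0.31, edgeR unadjusted p = 0.0405). Jun, its dimer partner, overlapped over the 4 pools of each model, with 100 to 143 CPM in crush and 86.7 to 121 CPM in glaucoma. Sox11, a factor of developing and regenerating RGCs, was at 17.7 and 31.1 CPM in crush at 3 D and at 23.2 and 5.47 CPM in glaucoma. Gap43, a growth cone protein, was within 48.1 to 89.5 CPM in crush and 35.0 to 82.4 CPM in glaucoma, and Gal, the neuropeptide galanin, was at 1.52 to 6.20 CPM in crush and 1.04 to 15.8 CPM in glaucoma. Both overlapped.

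Over the whole list of 23 tested injury genes the median log2FC was 0.09 at 3 D and 0.09 at 2 W, with 0 genes past an unadjusted p of 0.05 at 3 D. At 2 W, 8 of the 23 were higher in crush with no overlap and 4 were lower, beside 18.6% and 20.4% of all genes. At an unadjusted p under 0.05, 1 was higher and 1 lower at that time, beside 2.52% and 4% of all genes. Without the female glaucoma 3 D pool the 3 D median was 0.33, and the 3 D log2FC was 4.87 for Ecel1, 3.31 for Sprr1a, 2.22 for Sox11 and 1.42 for Atf3, none of them called.

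**Figure D3:**
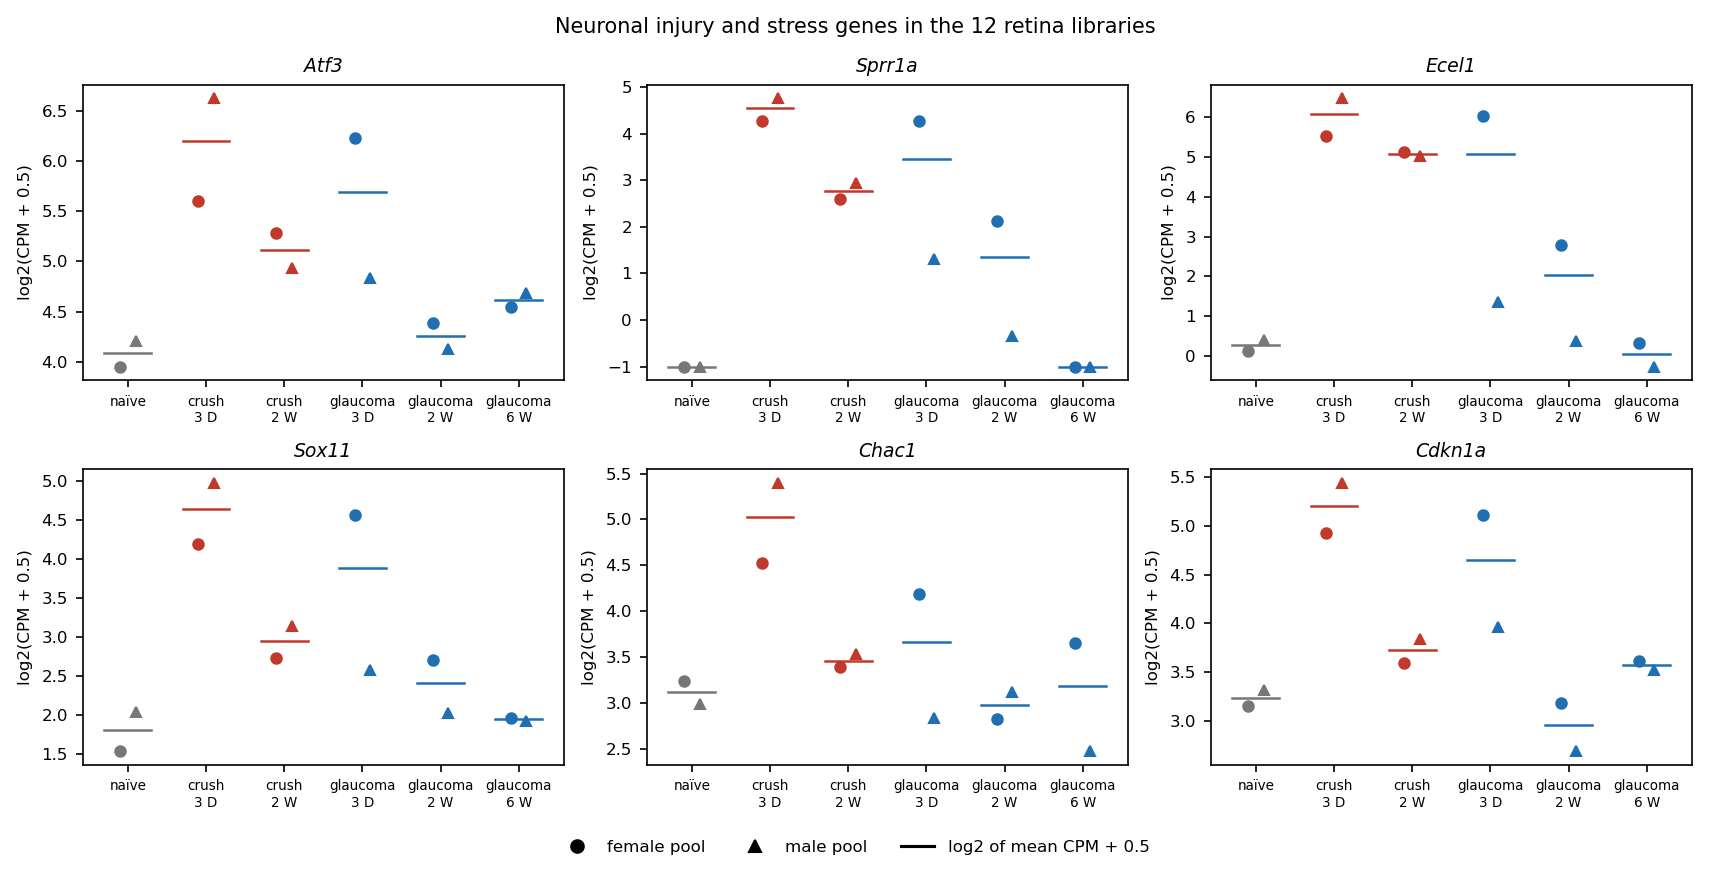
Neuronal injury and stress genes in each retina library, as log2(CPM + 0.5) on the vertical axis, by group on the horizontal axis. Circles are female pools, triangles male pools and lines the log2 of the group mean. The female glaucoma 3 D pool lies in the range of crush at 3 D for Atf3, Sprr1a and Ecel1 (74.3, 18.8 and 64.3 CPM), and the male pool lies below both crush pools.

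The integrated stress response couples stalled translation to ATF4 and its targets. Its 20 tested genes had a median log2FC of 0.45 at 3 D and 0.17 at 2 W, and 10 of the 20 were higher in crush with no overlap at 3 D, beside 18.1% of all genes. None was called by edgeR or DESeq2, and 4 had an unadjusted p under 0.05 in that direction (1.92% of all genes). Without the female glaucoma 3 D pool the 3 D median was 0.70. Chac1, a glutathione-degrading enzyme induced by ATF4, was at 22.6 and 41.7 CPM in crush at 3 D and at 17.7 and 6.64 CPM in glaucoma, with 8.97 and 7.45 CPM in naïve retina. By 2 W it had come together, at 9.99 and 11.1 CPM in crush and 6.63 and 8.21 CPM in glaucoma (3 D log2FC 1.40, SE 0.49, edgeR unadjusted p = 0.0198, adjusted p = 1.0). Mthfd2, a mitochondrial folate enzyme, was at 39.0 and 69.5 CPM in crush at 3 D and 30.9 and 17.5 CPM in glaucoma (log2FC 1.2, unadjusted p = 0.0104). Trib3, a pseudokinase that restrains ATF4, was higher in crush with no overlap at each time, at 19.8 and 25.5 CPM against 12.5 and 17.6 CPM at 3 D, and at 19.0 and 16.5 CPM against 10.6 and 11.5 CPM at 2 W. Ddit3, the pro-apoptotic factor CHOP, was at 115 and 169 CPM in crush and 119 and 127 CPM in glaucoma at 3 D. These 3 D pools overlapped. At 2 W Ddit3 was at 115 and 101 CPM against 78.4 and 53.2 CPM, with crush the higher (log2FC 0.72, SE 0.24, edgeR unadjusted p = 0.0171).

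Of 18 p53 targets and cell death genes the median log2FC was 0.02 at 3 D and -0.06 at 2 W. Cdkn1a, the p53-induced cell cycle inhibitor p21, was at 29.9 and 43.0 CPM in crush at 3 D, 34.0 and 15.1 CPM in glaucoma and 8.40 and 9.49 CPM in naïve retina. At 2 W it was at 11.6 and 13.9 CPM in crush and 8.6 and 5.95 CPM in glaucoma. Bbc3, the pro-apoptotic BH3 protein PUMA, overlapped at 3 D, at 1.18 and 3.89 CPM in crush against 1.68 and 1.503 CPM in glaucoma. At 2 W it was lower in crush without overlap, at 1.33 and 1.36 CPM against 2.03 and 3.21 CPM, and was not called (edgeR adjusted p = 0.788). Among 20 immediate early genes, with medians of 0.14 and 0.02, Egr1 was at 49.5 and 47.7 CPM in crush and 27.5 and 23.6 CPM in glaucoma at 3 D (log2FC 0.93, SE 0.20, edgeR unadjusted p = 0.00142, adjusted p = 1.0). At 2 W Egr1 was at 29.0 and 31.3 CPM against 38.7 and 28.1 CPM.

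The 6 retinal stress genes that the study chose on these samples (Gfap, Osmr, Fgf2, Edn2, Stat3 and Socs3) are not independent evidence of a direction, and all 6 had a negative log2FC over both times, with a median of -0.27. They were above naïve in both models, with a median log2 ratio to naïve of 1.06 to 1.29 in the crush pools and 1.13 to 1.89 in the glaucoma pools.

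Fgf2, a survival factor for photoreceptors that Müller glia make under stress, was called by DESeq2, which called none of the other 5. It was at 0.401 and 0.248 CPM in naïve retina, at 3.32 and 0.864 CPM in crush at 3 D and at 11.3 and 6.88 CPM in glaucoma at 3 D. At 2 W it was at 14.3 and 3.91 CPM in crush and at 39.9 and 10.95 CPM in glaucoma. Female pools were above male pools in every group, and within each sex and time glaucoma was the higher. The log2FC was -1.93 over both times (SE 0.29), which missed in edgeR (adjusted p = 0.516) and passed in DESeq2 (adjusted p = 7.84e-08). Without the female glaucoma 3 D pool, which leaves only the male pool in that group, the 3 D log2FC of Fgf2 was -2.97 in edgeR. The pools were without overlap at 3 D and overlapped at 2 W. In FPKM they overlapped at both times, at 2.04 and 1.31 in crush against 3.73 and 1.24 in glaucoma at 3 D, and at 2.92 and 1.89 against 6.77 and 2.65 at 2 W. The male glaucoma 3 D pool was thus below both crush 3 D pools in FPKM, the opposite of its order in counts. At 6 W its pools were far apart, at 15.5 and 0.634 CPM.

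Gfap, the intermediate filament of reactive astrocytes and Müller glia, was at 35.2 and 52.8 CPM in crush at 3 D and 52.6 and 41.6 CPM at 2 W. In glaucoma it was at 61.0 and 43.7 CPM at 3 D and at 58.9 and 48.6 CPM at 2 W, all above 22.4 and 20.7 CPM in naïve retina. The models overlapped for Gfap (log2FC -0.21, SE 0.18). Osmr, the oncostatin M receptor, Stat3, the transcription factor below it, and Socs3, its feedback inhibitor, had log2FC over both times of -0.34, -0.07 and -0.33, none of them called. Osmr was at 11.5 and 11.1 CPM in crush and 21.8 and 13.6 CPM in glaucoma at 3 D without overlap, and at 9.97 and 11.7 CPM against 14.5 and 8.85 CPM at 2 W with overlap. Edn2, an endothelin made by stressed photoreceptors, was at 11.04 and 3.40 CPM in crush and 17.8 and 10.7 CPM in glaucoma at 3 D. At 2 W its order was mixed, at 29.7 and 43.0 CPM in crush and 38.4 and 12.7 CPM in glaucoma.

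Of 12 PAN-reactive astrocyte genes tested, 6 were lower in crush over both times at an unadjusted p under 0.05 (2.12% of all genes). With no overlap, 1 was lower, Steap4, beside 1.2% of all genes. The list's median log2FC was -0.41 over both times, -0.61 at 3 D and -0.28 at 2 W. Steap4, a metalloreductase of reactive glia, was at 1.12 and 0.813 CPM in crush at 3 D and at 0.467 and 0.554 CPM at 2 W. Glaucoma was at 3.01 and 4.88 CPM at 3 D, at 14.7 and 1.63 CPM at 2 W and at 13.6 and 11.3 CPM at 6 W, against 0.0944 and 0.221 CPM in naïve retina. All 4 glaucoma pools were above all 4 crush pools (log2FC -2.90, SE 0.64, edgeR adjusted p = 0.9997, DESeq2 adjusted p = 8.67e-05). DESeq2 called no other gene of the list over both times.

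Lcn2, the iron-binding lipocalin of reactive astrocytes and neutrophils, differed widely between the pools of most groups. It was at 37.3 and 5.03 CPM in crush at 3 D and at 9.16 and 6.54 CPM at 2 W. In glaucoma it was at 20.9 and 98.7 CPM at 3 D and at 167 and 24.2 CPM at 2 W, and at 190 and 145 CPM at 6 W. Both glaucoma pools were above both crush pools at 2 W only (over both times log2FC -2.80, SE 0.72, edgeR unadjusted p = 0.00359, adjusted p = 0.9997). Timp1, a metalloproteinase inhibitor, was at 0.393 and 0.886 CPM in crush at 2 W and 5.59 and 1.35 CPM in glaucoma. Serpina3n, a secreted protease inhibitor, was at 22.6 and 10.03 CPM in crush and 27.9 and 36.3 CPM in glaucoma at 3 D, and at 17.6 and 19.7 CPM against 60.8 and 11.6 CPM at 2 W. Cp, the ferroxidase ceruloplasmin, was at 153 to 202 CPM in crush and 152 to 307 CPM in glaucoma. Cd44, a hyaluronan receptor, was at 4.52 to 12.8 CPM in crush and 10.9 to 21.0 CPM in glaucoma. Vim, the other intermediate filament of Müller glia, was at 121 and 127 CPM in crush at 3 D. Glaucoma was the higher at that time, at 147 and 151 CPM. At 2 W the order of Vim was the opposite, at 120 and 126 CPM in crush against 108 and 63.9 CPM in glaucoma. Lrg1, a secreted glycoprotein named after its values were seen, was at 0.131 to 0.665 CPM in the 4 crush pools and 1.04 to 5.50 CPM in the 4 glaucoma pools (log2FC -3.01, SE 0.67, edgeR adjusted p = 0.9997, DESeq2 adjusted p = 0.00172).

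**Figure D4:**
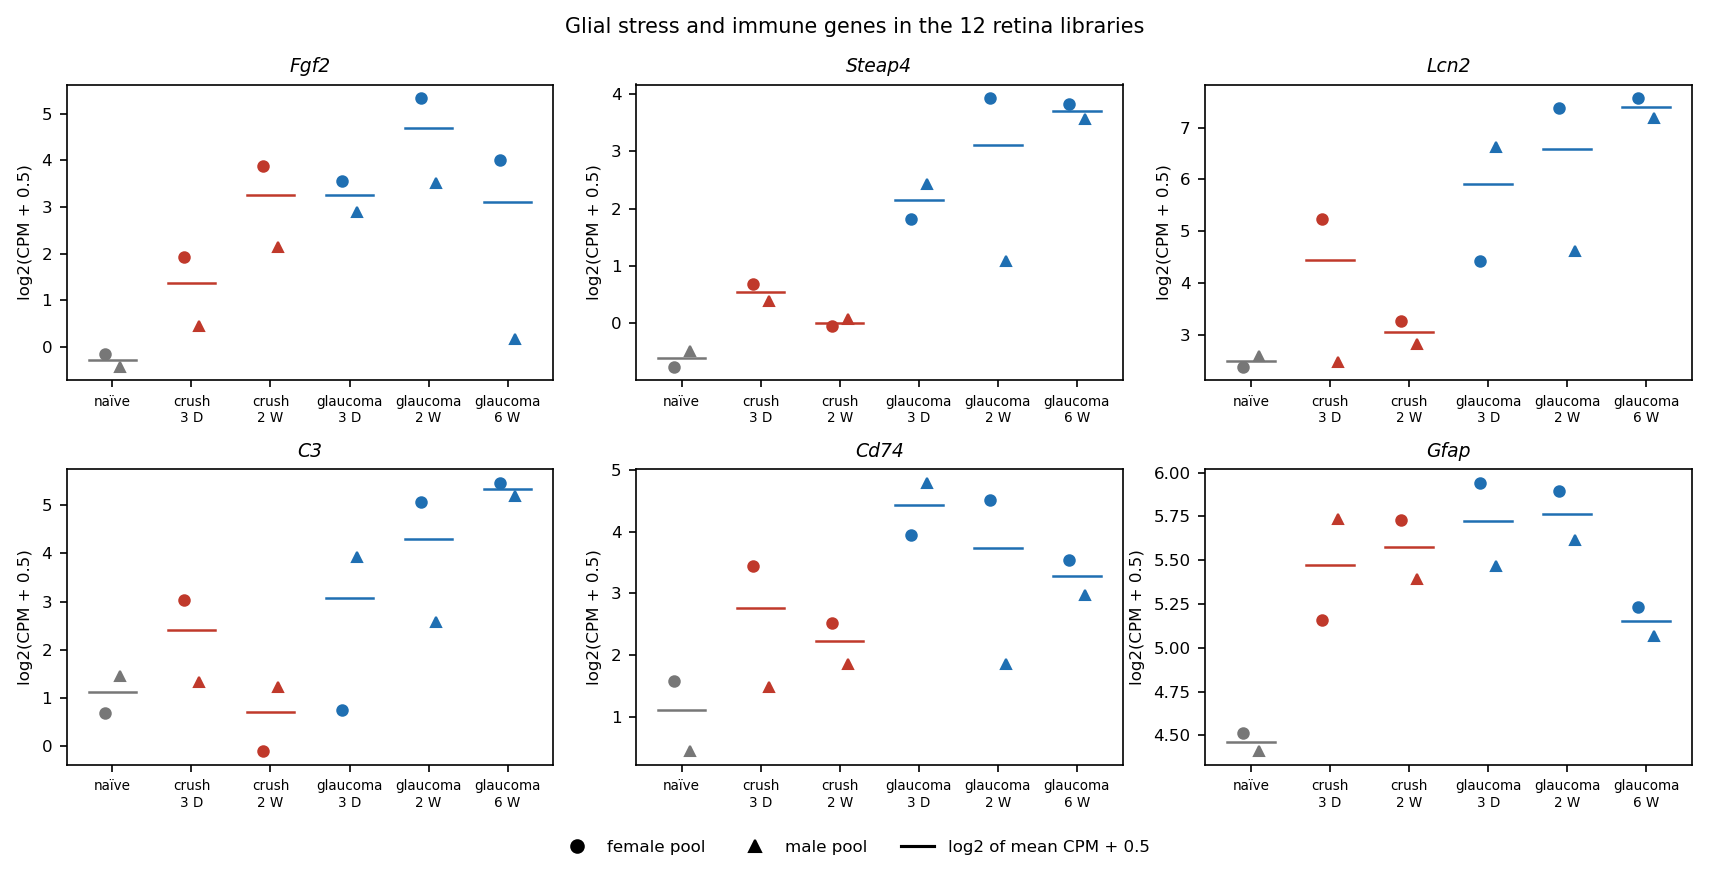
Glial stress and immune genes in each retina library, as log2(CPM + 0.5) on the vertical axis, by group on the horizontal axis. Circles are female pools, triangles male pools and lines the log2 of the group mean. Steap4 is at 1.12 CPM or less in the 4 crush pools and 1.63 CPM or more in the glaucoma pools, while Gfap overlaps.

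A1 and A2 astrocyte genes had medians of -0.57 and -0.41 at 3 D and of 0.10 and 0.09 at 2 W, with none called by edgeR or DESeq2. Müller glia genes had medians of -0.11 and 0.14. Glutamine synthetase (Glul) was at 966 to 1049 CPM in crush and 905 to 1290 CPM in glaucoma, the retinaldehyde-binding protein Rlbp1 at 337 to 582 and 406 to 449 CPM, and the water channel Aqp4 at 126 to 149 and 120 to 171 CPM. All 3 overlapped over the 4 pools of each model. Without the female glaucoma 3 D pool the 3 D medians were -0.69 for PAN-reactive, -0.65 for A1, -0.25 for A2 and -0.19 for Müller glia genes.

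Antigen presentation, complement and microglia lists had negative medians at 3 D, and edgeR and DESeq2 called none of their genes. Of 16 antigen presentation genes, 11 were lower in crush with no overlap at 3 D (15.6% of all genes), and 5 of the 16 were lower at an unadjusted p under 0.05 (1.56% of all genes), with a median log2FC of -0.63. Cd74, the invariant chain of MHC class II, was at 10.3 and 2.29 CPM in crush at 3 D and 14.8 and 27.2 CPM in glaucoma. At 2 W the pools overlapped, at 5.22 and 3.10 CPM against 22.4 and 3.11 CPM. The class II chain H2-Aa was at 4.90 and 0.178 CPM in crush and 7.91 and 11.42 CPM in glaucoma at 3 D, and H2-Eb1 at 2.33 and 0.330 CPM against 4.35 and 6.41 CPM. H2-D1, a class I heavy chain, was at 278 and 178 CPM in crush and at 284 and 309 CPM in glaucoma at 3 D. At 2 W its order was the opposite, at 256 and 234 CPM against 219 and 159 CPM. Without the female glaucoma 3 D pool the 3 D median was -0.67 for antigen presentation, -1.46 for complement, and -0.73 and -0.34 for the homeostatic and activated microglia genes described next.

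The 18 complement genes had a median of -0.68 at 3 D and -0.20 at 2 W. C3, the central complement component, was at 7.66 and 2.03 CPM in crush at 3 D and 0.430 and 1.83 CPM at 2 W. In glaucoma it was at 1.19 and 14.8 CPM at 3 D and at 32.8 and 5.50 CPM at 2 W, against 1.11 and 2.26 CPM in naïve retina. Only the 2 W pools were without overlap (log2FC -4.16, SE 1.48, edgeR unadjusted p = 0.0217, adjusted p = 0.733). C4b, of the classical pathway, was at 20.3 and 9.75 CPM in crush and 19.0 and 24.9 CPM in glaucoma at 3 D, and at 23.4 and 21.0 CPM against 63.5 and 25.1 CPM at 2 W. C1qa, made by microglia, was at 7.97 and 7.24 CPM in crush and 10.9 and 21.1 CPM in glaucoma at 3 D. By 2 W C1qa was at 13.9 and 14.9 CPM against 12.5 and 6.77 CPM, the opposite order.

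Homeostatic and activated microglia genes had medians of -0.44 and -0.19 at 3 D and of 0.32 and 0.37 at 2 W. The positive 2 W medians go with the male glaucoma pool. For homeostatic genes the median log2 ratio to naïve at 2 W was 0.66 and 0.42 in crush, and 0.72 and -0.05 in glaucoma. For activated genes it was 0.74 and 0.82 in crush, and 0.70 and -0.18 in glaucoma. Aif1, which encodes the microglial protein Iba1, was at 4.13 and 1.22 CPM in crush and 4.74 and 6.69 CPM in glaucoma at 3 D, and at 4.56 and 3.19 CPM against 2.92 and 1.46 CPM at 2 W. Cd68, a lysosomal protein of phagocytes, was nearly level, with 4.99 to 11.3 CPM in crush and 3.21 to 11.3 CPM in glaucoma. The summed level of the 16 monocyte, macrophage and neutrophil genes tested was 38.9 to 95.8 CPM in crush and 54.4 to 209 CPM in glaucoma, and its part in these results was not tested. Lyz2, a lysozyme of myeloid cells and a member of that list, was at 57.6 and 6.43 CPM in crush and 32.6 and 105 CPM in glaucoma at 3 D, and at 13.97 and 12.96 CPM against 166 and 15.6 CPM at 2 W. The monocyte receptor Ccr2 was at 0 to 0.651 CPM in crush and 0.307 to 2.03 CPM in glaucoma, and the neutrophil receptor Cxcr2 was below the filter.

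Of 24 interferon-stimulated genes, 15 were higher in crush at 2 W with no overlap (18.6% of all genes) and the median log2FC was 0.47. At 3 D that median was -0.26. None was called by edgeR or DESeq2, and 4 had an unadjusted p under 0.05 at 2 W in that direction (2.52% of all genes). Ifit1, an RNA sensor, was at 15.8 and 11 CPM in crush and 6.85 and 8.19 CPM in glaucoma at 2 W, against 3.45 and 4.74 CPM in naïve retina. Igtp, an immunity-related GTPase, was at 11.8 and 12.4 CPM against 6.05 and 7.01 CPM. Cxcl10, an interferon-induced chemokine, was at 0.898 and 3.35 CPM against 0.369 and 1.42 CPM and overlapped.

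Of the other retinal neurons, edgeR called no gene over both times, at 3 D or at 2 W, and DESeq2 called 1, of the amacrine and horizontal cell list at 2 W. Rods, cones, bipolar cells, and amacrine and horizontal cells had median log2FC of -0.04, 0.02, -0.02 and -0.02 at 3 D. At 2 W these medians were 0.18, 0.17, 0.30 and 0.10. At that time 13 of 20 rod genes were higher in crush with no overlap (18.6% of all genes). At an unadjusted p under 0.05, 6 of the 20 were higher (2.52% of all genes). Sag was at 14240 and 13280 CPM in crush against 10760 and 7849 CPM in glaucoma. Cone arrestin (Arr3) was at 322 to 419 CPM in crush and 274 to 389 CPM in glaucoma over both times, and cone transducin (Gnat2) at 275 to 311 and 261 to 294 CPM. Gad1, the GABA-synthesizing enzyme of amacrine cells, was at 197 to 254 and 176 to 252 CPM. The 21 matrix and adhesion genes had medians of 0.18 at 3 D and -0.46 at 2 W, when 11 were lower in crush with no overlap (20.4% of all genes). Housekeeping genes had medians of -0.13 at 3 D and 0.17 at 2 W. In the male glaucoma 2 W pool the median log2 ratio to naïve was -0.31 for housekeeping, -0.27 for rod and -0.57 for bipolar cell genes. Each was the lowest of the 8 libraries.

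The summed level of the 9 oligodendrocyte and myelin genes tested was 90.8 to 122 CPM in crush and 90.0 to 174 CPM in glaucoma, the highest being the female glaucoma 3 D pool, and the oligodendrocyte factor Olig2 was listed at 0 in 7 of the 8 libraries. Pigment epithelium and melanocyte genes summed to 157 to 259 CPM in crush and 138 to 189 CPM in glaucoma. The lens crystallin Cryaa was listed at 0 in 7 of the 8 libraries and at 0.262 CPM in the other. It was at 42.9 CPM in the female 6 W pool.

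The remaining calls were genes for which the counts and FPKM differed or the naïve pools themselves lay far apart, or whose direction turned between the times. The smallest adjusted p over both times in edgeR was 0.0922, for Pcdhb17 and Eif4e. Pcdhb17 was listed at 0 in all crush pools and both glaucoma 2 W pools. In glaucoma at 3 D it was at 21.15 and 23.14 CPM, and in naïve retina at 0 and 23.3 CPM. Eif4e is the cap-binding translation factor. It was at 170 and 236 CPM in crush at 3 D and 213 and 193 CPM at 2 W, and at 88.1 and 95.6 and then 68.1 and 56.6 CPM in glaucoma. All crush pools were thus higher by counts (log2FC 1.42, SE 0.17). In FPKM crush was at 46.3, 51.5, 42.6 and 42.1 and glaucoma at 62.7, 76.3, 44.7 and 39.0, which is no rise in crush. Zfp260, a zinc finger factor, was at 54.8 and 65.7 CPM against 15.9 and 13.5 CPM at 2 W (log2FC 2.02, SE 0.21, edgeR adjusted p = 0.0243), and at 17.3 and 19.5 against 8.11 and 9.47 in FPKM. Zfp280b was at 1.91 and 1.44 CPM in crush and 30.7 and 39.7 CPM in glaucoma at 2 W, a fold of 21.0 in counts, whereas the FPKM fold was 1.78.

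Hs6st1, a heparan sulfate sulfotransferase, was at 12.04 and 10.1 CPM in crush at 3 D and 2.28 and 2.33 CPM at 2 W, and at 1.98 and 2.40 and then 20.3 and 13.3 CPM in glaucoma. The direction at 3 D was therefore the opposite of that at 2 W (2 W log2FC -2.85, edgeR adjusted p = 0.0405). Dpm1, a mannosyltransferase subunit, had the mirror image, at 19.2 and 13.9 and then 59.7 and 68.1 CPM in crush and 59.8 and 85.4 and then 20.7 and 17.3 CPM in glaucoma. Mir124-2hg, the host transcript of a neuronal microRNA, was called at 3 D, at 129 and 88.2 CPM in crush and 684 and 644 CPM in glaucoma (log2FC -2.63, SE 0.18, edgeR adjusted p = 0.00439). That call was lost with all 12 retina libraries, in the 3 D libraries alone and in limma on FPKM. The naïve pools alone spanned 92.3 and 596 CPM for that transcript. Purb, a single-stranded nucleic acid binding protein, was listed at 0 in every female pool and in the male glaucoma 3 D pool, and at 450, 566 and 212 CPM in the male crush 3 D, crush 2 W and glaucoma 2 W pools. Its call at 3 D rests on 1 crush pool, DESeq2 did not make it, and no fold is given.

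**Figure D5:**
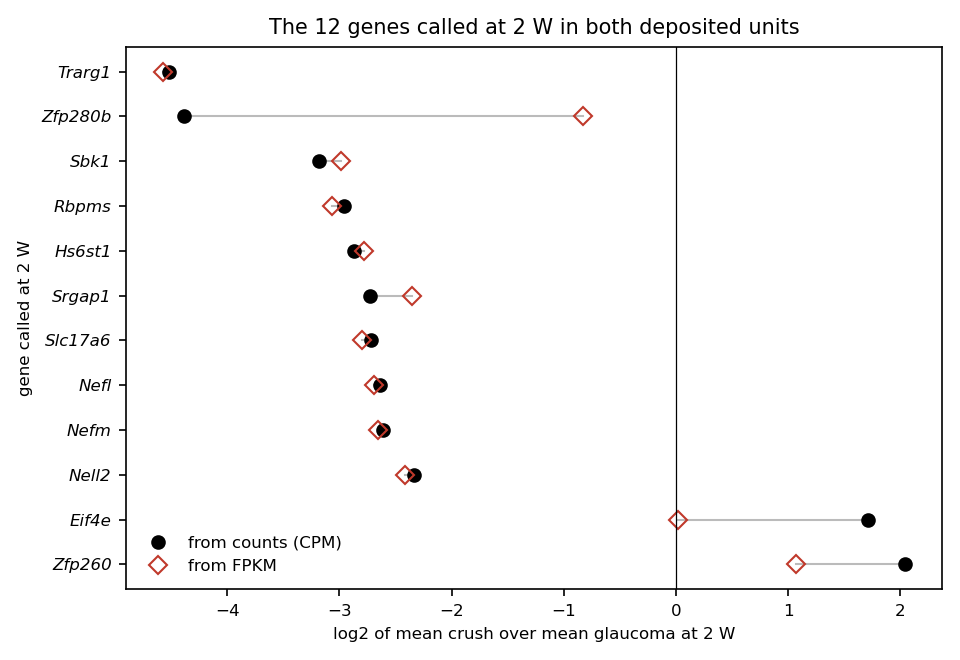
The 12 genes called at 2 W on the vertical axis, with the log2 of mean crush over mean glaucoma on the horizontal axis, from counts (filled circles) and from FPKM (open diamonds). The 2 units lie together for Nefl (-2.64 and -2.69) and apart for Zfp280b (-4.39 and -0.83) and Eif4e (1.71 and 0.02).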

How the data were processed

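Total retinal RNA was sequenced from pools of 2 mice, with 150-base reads. The authors aligned reads with HISAT2 (2.2.1) to GRCm38 and assembled and quantified genes with StringTie (1.3.0), per the submitters' processing notes. They deposited estimated counts per gene, which were whole numbers, and FPKM. Whether counting used strand is not given in the sources used here. Here, counts were filtered with filterByExpr (minimum count 10, minimum total 15), scaled by TMM and tested with edgeR (4.0.16) quasi-likelihood fits in R (4.3.3): model, time and sex for both times, and 4 groups and sex for each time and for the change of the gap. A gene was called at a Benjamini-Hochberg adjusted p under 0.05 over all genes tested and a log2FC beyond 1. Printed CPM use TMM-scaled library sizes. DESeq2 (1.42.0) and, on log2(FPKM + 1), limma (3.58.1) were alternatives. On simulated data for both times, edgeR recovered 61 of 100 genes changed by 2 on the log2 scale. It made 6 false calls over all changed sizes. At 2 W it recovered 48 of 100, with 10 false calls. DESeq2 recovered 73 of 100 for both times and 58 of 100 at 2 W, with 30 and 37 false calls.

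The groups, members and gene lists were chosen with earlier results of these data known. Named were the largest calls in each direction (up to 12 over both times, 5 for each other comparison) with an official symbol and a mean of at least 1 CPM, called members of lists, and a fixed set of RGC, injury, glial, immune and photoreceptor genes. Nell2, Srgap1, Lrg1, Pcdhb17, Foxp2, Tbx20, Trib3, Mthfd2, H2-Aa, H2-Eb1, Ccr2, Cxcr2, Ifit1, Igtp, Sag and Olig2 were named after their values were seen. Where a symbol had 2 identifiers, the one with more counts was used. Values well under 1 CPM rest on few counts. Some photoreceptor and interneuron genes are not reported here.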

Additional observations from a re-analysis of the deposited data

Results flagged for a closer look

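The gap between crush and glaucoma differed between 2 W and 3 D, by a test of that difference (edgeR, adjusted p 0.0112 to 0.0365), for 8 genes. On the log2 scale the 2 W gap minus the 3 D gap was -3.42 for Sbk1, -3.0 for Slc17a6, -2.71 for Nefm, -4.96 for Zfp280b, -5.16 for Hs6st1, 3.89 for Dpm1 and 2.80 for Mir124-2hg. For Purb the fitted value was -15.11, which rests on libraries listed at 0 and is no bound.

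Glaucoma at 6 W is outside the comparison of the models. In both its pools 7 of 65 genes of the fixed set, all glial or immune, were over 4 times the higher naïve pool and at 1 CPM or more, beside 27 of all 23598 genes tested (0.114%). None of the 7 passed against naïve in the edgeR fit of 12 libraries (adjusted p 0.0604 to 0.698), which called 2 genes at 6 W, both lower than naïve. Their mean CPM at 6 W was 167.6 for Lcn2, 100.8 for Lyz2, 44.9 for C4b, 39.88 for C3, 21.25 for Serpina3n, 12.46 for Steap4 and 2.489 for Timp1.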

How the results depend on the processing

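Sbk1, Slc17a6, Nefl and Nefm kept their 2 W call under all 18 alternatives, while the number of genes called moved with the processing. Over both times it was 0, and 27 with DESeq2, 3 without a filter, 2 without the sex term, 8 with all 12 retina libraries and 0 to 4 without 1 pool. At 3 D it was 2, and 49 with DESeq2, 11 without a filter, 0 in the 3 D libraries alone (822 genes at an unadjusted p under 0.05, edgeR) and 3 to 20 without 1 pool. At 2 W it was 12, and 161 with DESeq2, 59 without a filter, 22 without the sex term, 28 with all 12 libraries, 33 in the 2 W libraries alone and 5 to 47 without 1 pool. For the change of the gap it was 8, and 113 with DESeq2, 49 without a filter and 2 to 35 without 1 pool. Alternatives chosen after seeing the data gave 7 for both times with 4 groups and sex, 3, 4, 25 and 17 (both times, 3 D, 2 W, gap) with robust dispersions, 98 and 132 (both times, 3 D) for DESeq2 without the female glaucoma 3 D pool, and 7 and 5 (2 W, gap) for limma on FPKM. The direction reversed for Eif4e over both times in limma on FPKM (-0.24), and for Purb in the gap without the male glaucoma 3 D pool (1.36, beside fitted values down to -16.288 without the other pools). The highest 2 W counts without 1 pool came without the female or male glaucoma 3 D pool (47 and 43) and the lowest without the female crush 2 W pool (5). Where a setting moved a count, the cause was not tested. Without either crush 2 W pool, 8 of the 12 calls at 2 W were lost. A lone pool left in a group is assumed to vary like the other groups. Crush and glaucoma were done in separate mice, so there are no pairs between the models, and sex is a term of the fits.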
